A study of Mus musculus with 2 samples.

Results

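The cells described here came from CD4 T cells sorted out of mouse visceral fat, and they held RNA of Il1rl1, which encodes ST2, the receptor for the alarmin IL-33, and of Gata3, the transcription factor of T helper 2 (Th2) cells, with no RNA seen of Foxp3, Ikzf2, Il5 or Il13. They were selected on their own counts: a cell was taken, and is called a gated cell here, if it held at least 1 unique molecular identifier (UMI, 1 counted RNA molecule) of Il1rl1 and of Gata3 and 0 UMIs of the other 4 genes. Only barcodes with 500 or more genes and no more than 10% of UMIs from mitochondrial genes were kept. This gave 1059 of 6853 cells in the CD27_KO library and 198 of 6338 cells in the WT library, or 1257 of 13191 cells in all. The gate is itself a readout of these libraries, so the levels of its 6 genes are given as a description.

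The CD27_KO library came from CD27-/- mice and the WT library from WT mice, all C57BL/6. CD27 belongs to the TNF receptor family, binds CD70 and costimulates T cells. In each case cells of the stromal vascular fraction, the non-fat cells of adipose tissue, were pooled from several mice, sorted for TCRb and CD4 and run on a droplet platform that reads the 3′ ends of transcripts. The labels speak of 10 mice, and it is unclear whether that is the size of each pool. Their genotype field does not differ between the libraries, and the titles alone gave the groups. The series' text also speaks of crosses with a CD11c-Cd70 transgene, and no library of those mice was analysed here. The ages and sexes of the mice are not in the labels used here.

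Each group is 1 library of pooled mice, so no difference between CD27_KO and WT can be set against a spread between replicates. No test was made, and every interval given is an exact 95% interval of counting error. Differences between mice, pools or library preparations could be of any size and cannot be told apart from the genotype.

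Visceral fat holds T cells of both arms of type 2 immunity. ST2+ regulatory T cells (Tregs) depend on IL-33 and carry Foxp3 and, mostly, Ikzf2 (Helios). Th2 cells share ST2 and Gata3 with them but make the effector cytokines IL-4, IL-5 and IL-13. IL-33 acts through MyD88, IRAK and TRAF6 adaptors on NF-kB, and it can drive Th2 cells without antigen.

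The 6853 kept CD27_KO cells held 20154530 UMIs (median 2209 per cell), against 16569718 UMIs (median 1945.5) in the 6338 kept WT cells. The gated cells were deeper than these, with 4004537 UMIs (median 2964) in CD27_KO and 598566 UMIs (median 2307.5) in WT. The WT pool was therefore the limit on precision in each comparison of genotypes. Ribosomal protein genes took 28.2% of the gated cells' UMIs in CD27_KO and 29.2% in WT, and mitochondrial genes took 2.66% and 2.31%. The libraries shared 12 cell barcodes among kept cells. Of these, 3 belonged to a gated cell of one library, and none was a gated cell in both.

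Cd27 itself, the deleted gene, had 3 UMIs in 3 gated CD27_KO cells, against 40 UMIs in 32 gated WT cells. This is a log2 ratio of −6.48 (−8.82 to −4.83) of CPM, the UMIs of a gene scaled to a fixed library total, and the same ratio was −7.46 in all other kept cells. Both values go with the titles of the libraries. Cd70, the ligand, had 0 UMIs in gated CD27_KO cells and 1 UMI in gated WT cells.

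Gated cells made up 15.5% of CD27_KO cells (14.6 to 16.3) and 3.12% of WT cells (2.71 to 3.58), a ratio of 4.95 (4.25 to 5.79). A gate on presence and absence of UMIs moves with depth. After each cell was thinned to 1300 UMIs, and with 55 shallower CD27_KO cells and 547 shallower WT cells left out, the shares were 8.93% and 2.71%, a ratio of 3.29 (2.76 to 3.95). In shares of sorted cells, more gated cells and fewer cells of other kinds cannot be told apart.

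The libraries differed more in the Treg genes of ST2+ cells than in how many cells had ST2. Il1rl1 was seen in 27.8% of CD27_KO cells and 21.6% of WT cells, and Il1rl1 with Gata3 in 21.4% and 14.0%, a ratio of 1.53 (1.40 to 1.66). Among cells with both genes, 72.3% in CD27_KO and 22.3% in WT were gated cells. Foxp3 UMIs were found in 9.49% of these cells in CD27_KO and in 32.4% in WT. Ikzf2 without Foxp3 was found in 10.04% in CD27_KO and in 40.9% in WT. Il5 or Il13 without either Treg gene was found in 8.13% in CD27_KO and in 4.40% in WT. At 1300 UMIs per cell the gated cells were 84.3% of cells with both genes in CD27_KO and 41.4% in WT.

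**Figure D1:**
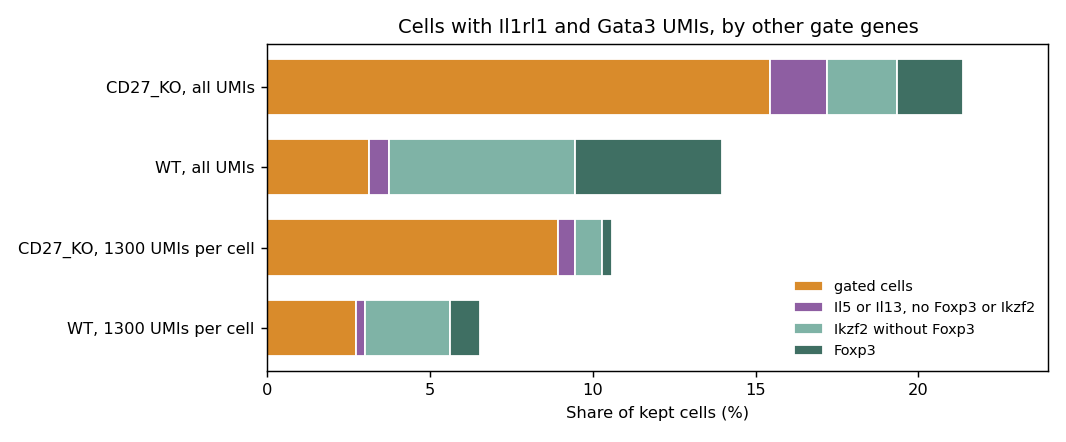
Share of kept cells (x axis, %) with UMIs of both Il1rl1 and Gata3, split by the other gate genes, in the CD27_KO and WT libraries with all UMIs and after thinning to 1300 UMIs per cell. Gated cells (orange) are 15.5% of CD27_KO cells and 3.12% of WT cells with all UMIs, while the cells with Ikzf2 or Foxp3 (greens) are the wider bars in WT.

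The UMIs that admitted a cell were few. Il1rl1 rested on 1 UMI in 26.4% of gated CD27_KO cells and 38.4% of gated WT cells, with medians of 3 and 2 UMIs and highest values of 20 and 9. Gata3 rested on 1 UMI in 30.9% in CD27_KO and 45.5% in WT, with a median of 2 in each. Both genes rested on 1 UMI in 117 CD27_KO cells and 41 WT cells. Summed over gated cells, Il1rl1 (chr1:40429570-40465415, plus strand, mm10) reached 913 CPM in CD27_KO and 827 CPM in WT. Gata3 (chr2:9857078-9890034, minus strand) reached 795 CPM in CD27_KO and 695 CPM in WT. The levels of the defining genes per UMI were thus close in the gated cells of the libraries, with log2 ratios of 0.14 for Il1rl1 and 0.19 for Gata3.

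Cells admitted on 1 UMI of each gene carried less RNA of Treg markers than cells that 1 UMI of Foxp3 or Ikzf2 kept out. This held in both libraries, but the cells kept out were picked for a Treg transcript, so the contrast only describes the selection. They were also deeper, with medians of 5066 UMIs against 2303 in CD27_KO and 3418 against 1917 in WT. The gated cells with only 1 UMI of each gene summed to 88.4 CPM of 7 strict Treg markers (Ctla4, Ikzf4, Lrrc32, Gpr83, Izumo1r, Tigit and Il10) in CD27_KO and 397 CPM in WT. Cells that 1 UMI of Foxp3 or Ikzf2 kept out, 52 in CD27_KO and 83 in WT, summed to 413 CPM in CD27_KO and 774 CPM in WT. Il4 ran the other way. It had 97.9 CPM in the 1-UMI gated cells and 64.3 CPM in the cells left out in CD27_KO, and 55.1 CPM and 18.5 CPM in those of WT. The WT values rest on few Il4 UMIs, as these cells held only 90793 and 324296 UMIs of all genes. No interval was computed for these values. At the inner end, 294 CD27_KO cells and 24 WT cells had 3 or more UMIs of each gene, with 115 CPM and 451 CPM of the strict markers.

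The label of the cells was then set against markers the gate did not use. They were T cells: every gated cell had a UMI of the T cell receptor complex and its proximal kinases, and this list summed to 5959 CPM in CD27_KO and 6223 CPM in WT. Cd4, which the sort required, had 466 UMIs in 332 of 1059 gated CD27_KO cells and 81 UMIs in 60 of 198 gated WT cells. Markers of other sorted-out cells were low. Mast cell and basophil markers summed to 4.74 CPM in CD27_KO and 8.35 CPM in WT, with Mcpt8, Mcpt4, Fcer1a, Ms4a2 and Gata2 at 0 UMIs in both. B cell markers summed to 4.25 CPM in CD27_KO and 28.4 CPM in WT. Macrophage and dendritic cell markers summed to 16.2 CPM and 41.8 CPM, with Itgam, Fcgr3, Clec9a and Itgax at 0. Stromal and fat cell markers summed to 29.5 CPM and 21.7 CPM, with Col1a1, Dcn, Pdgfra and Adipoq at 0. CD8 and NK cell markers summed to 42.7 CPM and 50.1 CPM, with Ncr1 and Prf1 at 0.

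The Th2 label held in part. Il4 was present, as described below, and so was Pparg, the lipid-sensing nuclear receptor that adipose Th2 cells and Tregs share, with 65.9 CPM in CD27_KO and 56.8 CPM in WT. Ptgdr2, which encodes the Th2 surface marker CRTH2, had 0 UMIs in the gated cells of both libraries, and Il17rb, the IL-25 receptor, had 22 UMIs in CD27_KO and 4 in WT. Il17a, the Th17 cytokine, had 4 UMIs from 1 cell in CD27_KO and 0 UMIs in WT. The 8 Th17 genes as a list were not lower, with 111 CPM in gated cells and 104 CPM in the others of CD27_KO. In WT they had 165 CPM and 114 CPM, with 6 of the 8 at 0 UMIs in gated cells. With all UMIs, any of them was seen in 19.6% of gated CD27_KO cells and 21.7% of gated WT cells. The other, shallower cells had 12.7% and 11.2%. Tbx21, the Th1 transcription factor, stood at 12.99 CPM in CD27_KO and 13.37 CPM in WT, and Ifng at 68.4 CPM and 68.5 CPM. Treg markers other than Foxp3 and Ikzf2 were not absent, as given next, so the cells are named by their gate and not as Th2 cells.

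Of 18 Treg genes outside the gate, 1 or more was seen in most gated cells even at 1300 UMIs, as Il2ra, Tnfrsf18 and Klrg1 are not limited to Tregs. At least 3 of them were seen in 11.05% of gated CD27_KO cells and 26.7% of gated WT cells, against 63.8% and 68.4% of cells with Il1rl1 and Foxp3. None of the 7 strict markers was seen in 88.1% of gated CD27_KO cells (86.0 to 90.0) and 79.6% of gated WT cells (73.2 to 85.1). Among cells with Il1rl1 and Foxp3 this held for 33.7% in CD27_KO and 32.9% in WT, and among cells with Ccr7 or Lef1 and no Il1rl1 for 81.7% and 77.7%. The gated cells were thus free of strict markers at least as often as these Ccr7 or Lef1 cells. The latter can include Tregs, as Ikzf2 was seen in 7.48% of them in CD27_KO and 9.33% in WT. Of the 18 genes, however, 3 or more were seen in 4.62% of the Ccr7 or Lef1 cells in CD27_KO and 6.22% in WT, below the shares in gated cells. The strict markers summed to 119 CPM in gated cells, 1081 CPM in Foxp3+ cells and 344 CPM in all cells outside the gate in CD27_KO, and to 299, 1071 and 529 CPM in those of WT. By these measures the gated cells of both libraries lay far from the Foxp3+ cells, and the gated WT cells lay nearer to them than the gated CD27_KO cells did.

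**Figure D2:**
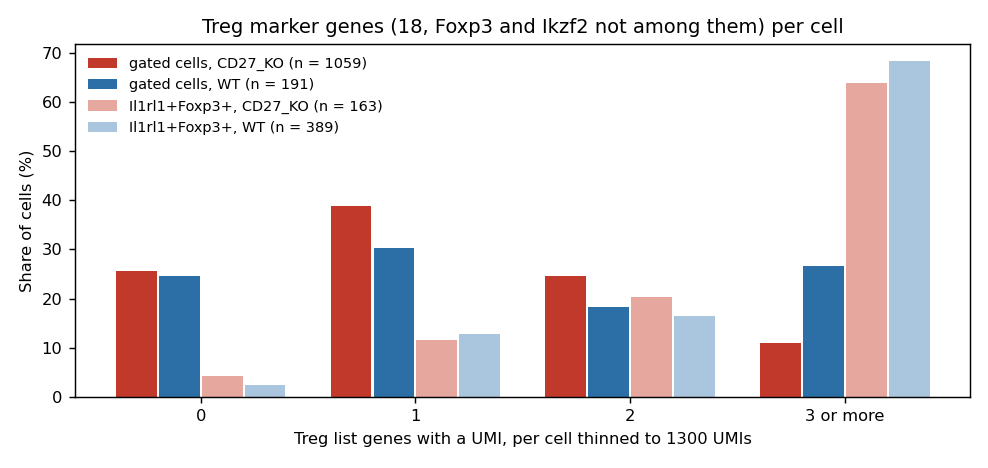
Share of cells (y axis, %) by the number of 18 Treg marker genes with a UMI (x axis), after thinning to 1300 UMIs, for gated cells and for Il1rl1+Foxp3+ cells of each library. In 11.05% of gated CD27_KO cells and 26.7% of gated WT cells 3 or more were seen, against 63.8% of CD27_KO and 68.4% of WT Il1rl1+Foxp3+ cells.

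Against the cells with Il1rl1 and Foxp3 (163 in CD27_KO and 406 in WT), the gated cells had more RNA of several cytokines and ligands, in both libraries. Areg was seen in a smaller share of the gated cells, and most Treg genes were lower in them. These Foxp3+ cells were deeper, with medians of 5568 UMIs in CD27_KO and 3968.5 in WT. Il4, the founding Th2 cytokine, had 116 CPM in gated cells and 39.4 CPM in Foxp3+ cells of CD27_KO, a log2 ratio of 1.56 (1.12 to 2.04). In WT it had 58.5 CPM and 10.5 CPM, a log2 ratio of 2.48 (1.67 to 3.32). Tnfsf11, which encodes the cytokine RANKL, had 435 CPM in gated cells and 176 CPM in Foxp3+ cells of CD27_KO, and 358 CPM and 84.4 CPM in those of WT. Csf2, which encodes GM-CSF, had 169 CPM and 61.2 CPM in CD27_KO, and 418 CPM and 149 CPM in WT. Calca, which encodes the neuropeptide CGRP, had log2 ratios of 1.68 in CD27_KO and 1.59 in WT, and Cd40lg, the ligand by which helper cells activate B cells, had 1.07 in each. Ifitm2 and Ifitm3, interferon-induced membrane proteins, were higher by 1.43 and 1.14 in CD27_KO and by 1.62 and 2.29 in WT. Of 10 type 2 cytokine and effector genes measured in CD27_KO, 6 were higher and 3 lower, and of 9 in WT, 6 were higher and 2 lower. Over all genes with 20 UMIs, 6.97% were higher and 12.4% lower in CD27_KO, and 6.84% higher and 19.4% lower in WT. Th2 surface and transcription factor genes did not share this. Of 18 measured in CD27_KO, 3 were higher and 5 lower, with a median of −0.22. Of 16 measured in WT, 2 were higher and 4 lower, with a median of −0.16. Furin, a protease that cleaves pro-proteins and is induced in T cells, was 0.74 higher on the log2 scale in CD27_KO and 1.90 in WT.

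On the other side stood Ctla4, the inhibitory receptor of Tregs and activated T cells. It had 64.4 CPM in gated cells and 869 CPM in Foxp3+ cells of CD27_KO, and 231 CPM and 838 CPM in those of WT, log2 ratios of −3.75 (−3.96 to −3.55) and −1.86 (−2.12 to −1.61). Gzmb, which encodes granzyme B, had log2 ratios of −4.68 in CD27_KO and −3.19 in WT. Tnfrsf9 (4-1BB) had −4.81 in CD27_KO and −2.99 in WT. Ikzf4 (Eos), a transcription factor that works with Foxp3, had −2.01 and −2.14. Mt1, Irf8, Ccr3, Sdc4 and Lamc1 were the other genes furthest lower. Of the 18 Treg genes, 14 of 16 measured were at least 1.5-fold lower in gated cells of CD27_KO and 14 of 15 in WT, with medians of −1.76 and −1.21. Over all genes with 20 UMIs the share lower was 12.4% in CD27_KO and 19.4% in WT. The gate uses Foxp3 and Ikzf2, so these counts describe the cells it selects. Over all genes with at least 50 UMIs, 4.35% were higher and 8.69% lower in CD27_KO, and 3.74% higher and 14.6% lower in WT. When CPM was computed without ribosomal and mitochondrial genes, the share of called genes that were higher was 47.0% in CD27_KO and 31.1% in WT, against 33.4% and 20.4% with them.

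**Figure D3:**
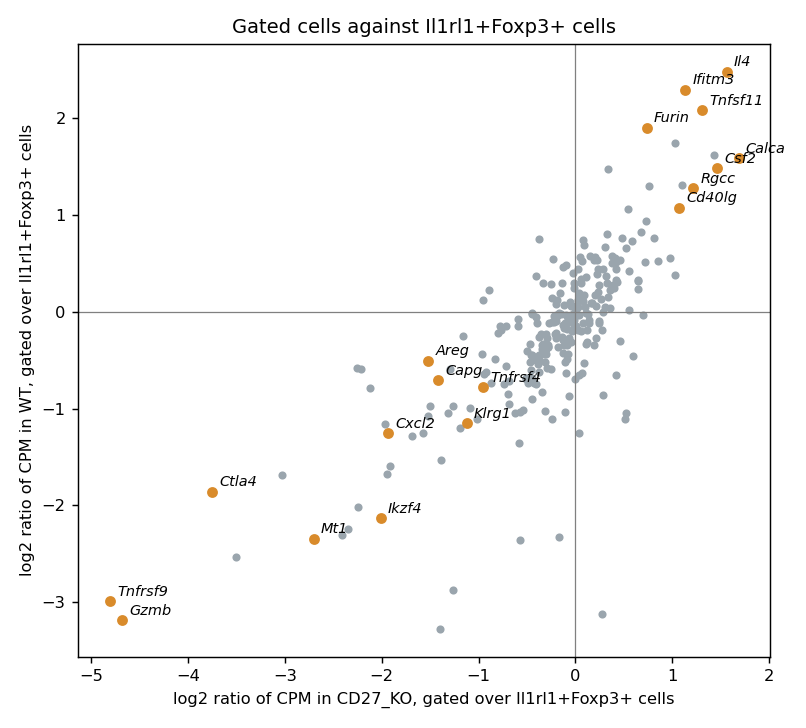
Log2 ratios of CPM, gated cells over Il1rl1+Foxp3+ cells, in CD27_KO (x axis) and in WT (y axis). The points are 275 listed or named genes with at least 50 UMIs over both kinds of cells in each library, and those in orange are labelled. Il4, Tnfsf11, Calca and Csf2 lie at the upper right (above 1.3 in CD27_KO and in WT) and Ctla4, Gzmb and Tnfrsf9 at the lower left.

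Against all other kept cells, mostly T cells without ST2, the genes furthest higher in the gated cells of both libraries were Slc7a8, Tnfsf11, Tmem273, Rnf128, Calca, Ccdc184, Prnp, Hdc, Mapk12, Pparg, Atf3 and Map6. Hdc encodes histidine decarboxylase, which makes histamine. It had 85.9 CPM in gated cells and 20.3 CPM in the others of CD27_KO, and 68.5 CPM and 16.3 CPM in those of WT. Its UMIs came from 87 gated cells in CD27_KO and 15 in WT, while 5 of 8 mast cell and basophil markers were at 0, as named above. A UMI of any of the 8 was found in 1.51% of gated CD27_KO cells and 1.52% of gated WT cells, against 0.501% and 0.554% of the other cells, and their part in the Hdc result was not tested. Pparg had log2 ratios of 2.02 (1.77 to 2.27) in CD27_KO and 1.95 (1.38 to 2.47) in WT. Slc7a8, an amino acid transporter, had 2.39 and 2.79, and Rnf128 (GRAIL), a ubiquitin ligase of T cell anergy, had 2.08 and 2.56. Ccr7, the lymph node homing receptor, was among the lowest, with −3.16 and −3.30. Over all genes 5.15% were higher and 7.97% lower in CD27_KO, and 11.2% higher and 15.8% lower in WT. Of the type 2 cytokine and effector list, 8 of 10 genes were higher and 2 lower in each library, against 6.6% higher and 11.6% lower in CD27_KO and 13.5% higher and 15.4% lower in WT over all genes with 20 UMIs. Immediate early genes, which tissue digestion can induce, were higher as well. Of 15 measured, 9 were higher and none lower in gated cells of CD27_KO, and 7 were higher and 2 lower in those of WT, with Zfp36 1.52 and 1.54 higher on the log2 scale, and the part of handling in this was not tested.

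The cells that the gate leaves out for a UMI of Il5 or Il13 numbered 119 in CD27_KO and 39 in WT. Furin was lower in gated cells than in them, 625 CPM against 1444 CPM in CD27_KO and 733 CPM against 1944 CPM in WT. Csf2 was lower too, with log2 ratios of −1.40 (−1.60 to −1.18) in CD27_KO and −1.70 (−1.98 to −1.41) in WT, and so was Calca, with −0.97 and −2.22. Rad50, a DNA repair gene that lies between Il13 and Il5 (chr11:53649519-53707319, minus strand), had −0.63 in CD27_KO and −0.65 in WT. Dhx40 and Plin2 were the other genes furthest lower. The intervals of Il4 include 0, with 0.22 (−0.18 to 0.64) in CD27_KO and −0.52 (−1.53 to 0.61) in WT. Tnfsf11 had 0.24 (0.03 to 0.45) and 0.16 (−0.32 to 0.67). Areg parted the libraries, with −1.74 (−1.89 to −1.58) in CD27_KO and −0.20 (−0.46 to 0.07) in WT, and this difference was not tested. Of the type 2 list, 6 of 8 genes were lower in CD27_KO and 3 of 6 in WT, and none was higher, against 11.8% higher and 10.1% lower in CD27_KO and 17.2% higher and 12.8% lower in WT over all genes with 20 UMIs. Over all genes 8.09% were higher and 6.67% lower in CD27_KO, and 9.27% higher and 7.51% lower in WT. A cell of this depth samples only part of its RNA, so 0 UMIs of Il5 or Il13 does not show that a cell lacked them.

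Within the gated cells, CD27_KO was set against WT gene by gene. Il4 and Bcl2 were higher in CD27_KO, while Areg, Ctla4, Csf2, Cxcl2, Tox, Plin2 and Anxa1 were lower, and Il2ra and Crlf2, receptor genes for IL-2 and TSLP, were nearly level. Past 1.5-fold, 1037 of 7091 genes with 50 or more UMIs stood higher (14.6%) and 285 lower (4.02%), and the median gene stood at 0.11 on the log2 scale. In the other kept cells 7.55% stood higher and 5.27% lower. Many of these rest on a handful of WT UMIs. Among the 3729 genes whose mean level over the libraries would give 20 WT UMIs, 238 (6.38%) were higher and 96 (2.57%) lower. The 12 genes furthest higher by the 50-UMI rule include 11 with 1 to 3 WT UMIs, among them Snhg5 (81 UMIs in CD27_KO and 1 in WT), Mki67 (78 and 1) and Pclaf (118 and 3), and their ratios have wide intervals.

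Il4 (chr11:53602982-53618669, minus strand) had 466 UMIs in 289 gated CD27_KO cells, or 116 CPM, against 35 UMIs in 23 gated WT cells, or 58.5 CPM. The log2 ratio was 0.99 (0.50 to 1.53). At 1300 UMIs per cell Il4 was seen in 13.98% of gated CD27_KO cells (11.9 to 16.2) and 8.90% of gated WT cells (5.27 to 13.9), and these intervals overlap. In cells with Ccr7 or Lef1 and no Il1rl1 the shares were 2.20% and 0.164%. Those cells are a mix that differs between the libraries. Gata3 was seen in 17.8% of them in CD27_KO and 9.06% in WT, and Ccl5 in 46.1% and 26.3%. The difference was not limited to the gated cells: the log2 ratio was 2.11 in all other kept cells and 1.91 in Foxp3+ cells. Among the other cytokines of the list, Il6 was higher too, while Csf2 was lower, as given below. Il3 and Il9 had 0 UMIs. Il6 had 97 UMIs in CD27_KO and 7 in WT, with 1.05 (−0.05 to 2.40). Its ratio was 0.35 with the Il5 or Il13 cells kept and 1.64 (0.04 to 3.95) without cells holding a strict Treg marker. With the gate applied at 1300 UMIs it was 2.69 (0.08 to 8.05). Of 8 type 2 cytokine and effector genes measured, 2 were higher (Il4 and Il6) and 2 lower (Areg and Csf2), with a median of 0.03, against 18.3% higher, 6.98% lower and a median of 0.12 over all genes with 20 UMIs.

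Areg, the tissue-repair growth factor amphiregulin, had 1040 UMIs in 186 gated CD27_KO cells, or 260 CPM, against 600 UMIs in 68 gated WT cells, or 1002 CPM. The log2 ratio was −1.95 (−2.09 to −1.80). It was also lower in the other kept cells (−1.501) and in Foxp3+ cells (−0.94). At 1300 UMIs it was seen in 12.5% of gated CD27_KO cells (10.5 to 14.6) and 28.3% of gated WT cells (22.0 to 35.2), which do not overlap, and in 1.03% and 2.51% of the Ccr7 or Lef1 cells. Csf2 had 675 UMIs in 132 gated CD27_KO cells (169 CPM) and 250 UMIs in 34 gated WT cells (418 CPM), a log2 ratio of −1.31 (−1.52 to −1.09). A single WT cell held 48 of its UMIs. In the other kept cells the ratio of Csf2 was −0.36.

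Ctla4 had 258 UMIs in 148 gated CD27_KO cells, or 64.4 CPM, against 138 UMIs in 61 gated WT cells, or 231 CPM, a log2 ratio of −1.84 (−2.14 to −1.53). It was −0.62 in the other kept cells and 0.05 (−0.06 to 0.16) in Foxp3+ cells, so the level of Ctla4 among Foxp3+ cells was nearly the same in both libraries. At 1300 UMIs Ctla4 was seen in 5.67% of gated CD27_KO cells and 17.8% of gated WT cells. In the Ccr7 or Lef1 cells the shares were 12.47% and 14.96%, so the share in gated CD27_KO cells was below that in these cells. Of the Treg list, 11 genes had 20 UMIs, of which 4 were lower in CD27_KO (Ctla4, Tnfrsf4, Capg and Gzmb) and none higher, with a median of −0.06. Over all genes with 20 UMIs, 6.98% were lower and 18.3% higher, with a median of 0.12. Tnfrsf4, which encodes the costimulatory receptor OX40, had 148 CPM in CD27_KO and 297 CPM in WT. Il10 had 4 UMIs in 2 gated CD27_KO cells and 9 UMIs in 3 gated WT cells. Klrg1, a marker of mature ST2+ cells, had 141 CPM in CD27_KO and 180 CPM in WT, with a log2 ratio of −0.35 (−0.65 to −0.04). The summed level of the 18 genes was 1146 CPM in CD27_KO and 1679 CPM in WT, and that of the 7 strict markers was 119 CPM and 299 CPM.

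Treg marker RNA thus differed between the gated cells of the libraries along with Areg and Cxcl2, which Foxp3+ cells also carry. Cells with any of the 7 strict markers were left out to see each ratio without them, which left 780 CD27_KO cells and 126 WT cells. Areg was then −1.46, Csf2 −1.71, Tox −1.06 and Cxcl2 −0.98, against −1.95, −1.31, −1.62 and −2.35 with them. Il4 was 0.86 and Bcl2 0.80. Tnfsf11 was −0.01, against 0.28 (0.08 to 0.50) with them, and Klrg1 was 0.21. Areg, Csf2, Tox and Cxcl2 were past 1.5-fold lower also among cells where no strict marker was seen. Of the 18 Treg genes, Tnfrsf4 (−1.13) and Capg (−0.99) stayed lower too, while Il2ra (−0.01) and Tnfrsf18 (−0.05) were level. With all UMIs, 6.13% of CD27_KO and 7.64% of WT cells with Il1rl1 and Foxp3 also had no strict marker. The filter thus cannot remove every Treg-like cell, and the part of such cells in these ratios was not tested. Anxa1 (−1.30) and Plin2 (−1.56) were so too.

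Cxcl2, a neutrophil chemokine, had 872 UMIs in 63 gated CD27_KO cells and 665 UMIs in 39 gated WT cells, a log2 ratio of −2.35 (−2.50 to −2.20), and −2.68 in the other kept cells. A single cell held 90 of the CD27_KO UMIs and another 76 of the WT UMIs. Ccl5, a chemokine of effector T cells, stood at 832 CPM in CD27_KO and 1230 CPM in WT, a log2 ratio of −0.56, but at 655 CPM and 606 CPM without the cells holding a strict Treg marker. With the gate applied at 1300 UMIs the ratio of Ccl5 was −1.41 (−1.73 to −1.10). Among cells gated at full depth and then thinned, it was seen in 20.8% in CD27_KO and 23.6% in WT. Ccl1, a ligand of CCR8, had 85 UMIs in CD27_KO and 5 in WT. Of 7 chemokines measured, 2 were higher (Ccl1 and Ccl4) and 3 lower (Cxcl2, Cxcl3 and Cxcl10), where 18.3% of all genes with 20 UMIs were higher and 6.98% lower. The 48 CD27_KO UMIs of Ccl4 came from 6 cells, and the 11 of Cxcl3 from 1 cell. With the gate applied at 1300 UMIs no CD27_KO UMI of Ccl4 was left, and its −1.37 is set by the floor of 3 counts. Among cells gated at full depth and then thinned, Ccl4 was seen in 4 CD27_KO cells and 0 WT cells. Reads of Cxcl2 and Cxcl3 may be exchanged, as their sequences are alike.

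**Figure D4:**
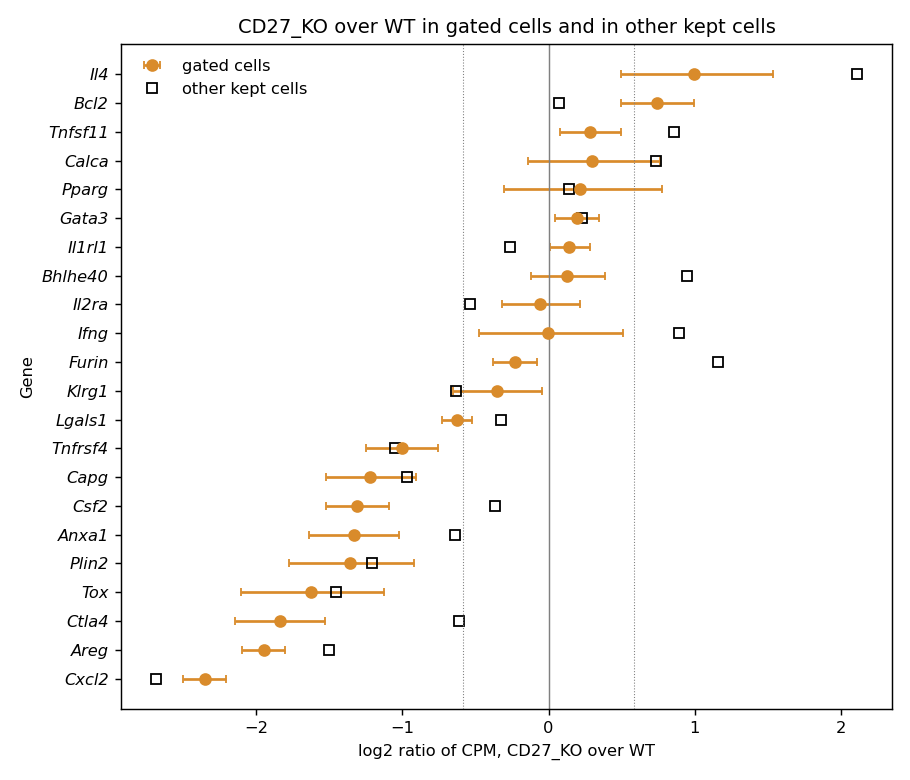
Log2 ratio of CPM, CD27_KO over WT (x axis), of 22 genes in gated cells (orange, bars are exact 95% intervals of counting error) and in the other kept cells (open squares). The dotted lines mark 1.5-fold. Il4 and Bcl2 are higher, and Areg, Ctla4 and Cxcl2 lower, in gated CD27_KO cells, while Furin and Bhlhe40 are near 0 in gated cells and higher in the other CD27_KO cells.

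Bcl2, the anti-apoptotic protein that IL-7 maintains, had 411 CPM in gated CD27_KO cells and 246 CPM in gated WT cells, a log2 ratio of 0.74 (0.50 to 0.99), against 0.07 in the other kept cells. At 1300 UMIs it was seen in 36.1% of gated CD27_KO cells (33.2 to 39.1) and 18.8% of gated WT cells (13.6 to 25.1). The Ccr7 or Lef1 cells, which express Bcl2, had 30.6% and 32.7%. Its ratio was 0.51 under a stricter cell filter and 0.58 without the Gata3 requirement. Of 11 survival genes measured, 1 was higher (Bcl2) and 3 lower (Bax, Bak1 and Pmaip1, which promote cell death), where 18.3% of all genes with 20 UMIs were higher and 6.98% lower, with Bax at 139 CPM in CD27_KO and 222 CPM in WT. Bcl2a1b and Bcl2a1d, near-identical copies whose reads cannot be assigned with certainty, were −0.08 and −0.14.

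ST2 itself is fixed by the gate, so the level of Il1rl1 within gated cells is no result. None of 15 alarmin and cytokine receptors measured was 1.5-fold apart, with a median of −0.06. Il2ra, the high-affinity IL-2 receptor chain, had 217 CPM in CD27_KO and 226 CPM in WT, and Crlf2, the TSLP receptor, 81.4 CPM and 76.9 CPM. Il7r had 1426 CPM in CD27_KO and 1089 CPM in WT, a log2 ratio of 0.39 (0.27 to 0.51). Il1rap, the partner chain of ST2, had 59 UMIs and 10 UMIs. Of 16 genes of IL-33 receptor and NF-kB signalling, 3 were higher (Traf6, Map3k7 and Tab2) and none lower, with a median of 0.17. This is near the share over all genes with 20 UMIs, where 18.3% were higher and 6.98% lower, with a median of 0.12. The same shares apply to the lists that follow. The NF-kB targets Nfkbia and Tnfaip3 were −0.05 and 0.17. Of 8 TRAF and cIAP adaptors, to which CD27 couples, Birc3 (0.59) and Map3k14 (1.47, from 7 WT UMIs) were higher and none was lower. Of 13 JAK, STAT and SOCS genes, 1 was lower (Stat5b, −0.73) and none higher.

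Th2 surface and transcription factor genes were mostly level as well. Of 18 measured, Epas1 was higher and Plin2 and Irf4 lower, with a median of 0.04. Over all genes with 20 UMIs, 18.3% were higher and 6.98% lower, with a median of 0.12. Pparg had a log2 ratio of 0.21 (−0.30 to 0.78) and was seen in 7.84% of gated CD27_KO cells and 7.85% of gated WT cells at 1300 UMIs. Bhlhe40, a regulator of tissue-resident and cytokine-producing T cells, was 0.13 in gated cells and 0.94 in the others. Rora, Maf and Ccr8 were 0.02, 0.10 and −0.28. Plin2, the lipid droplet coat protein, had 42.5 CPM in CD27_KO and 109 CPM in WT, a log2 ratio of −1.36 (−1.78 to −0.92). It was −1.20 in the other kept cells and −1.36 in Foxp3+ cells. The lipid genes as a list did not move with it, with 1 of 13 measured higher (Acsl4) and 2 lower (Acadvl and Plin2).

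Tnfsf11 had 435 CPM in CD27_KO and 358 CPM in WT, with a log2 ratio of 0.28, and was seen in 35.0% of gated CD27_KO cells (32.2 to 38.0) and 25.1% of gated WT cells (19.1 to 31.9) at 1300 UMIs. Furin had 625 CPM in CD27_KO and 733 CPM in WT, a ratio of −0.23 (−0.38 to −0.08) that runs against 1.16 in the other kept cells. Calca had 98.4 CPM in 106 gated CD27_KO cells and 80.2 CPM in 12 gated WT cells, 0.30 (−0.14 to 0.76). The ratio of Calca moved with the choice of cells. It was 1.55 (0.62 to 2.65) with the gate applied at 1300 UMIs, 1.005 (0.28 to 1.83) without strict-marker cells and −0.27 with the Il5 or Il13 cells kept. Cd40lg was 0.28 (0.12 to 0.44).

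**Figure D5:**
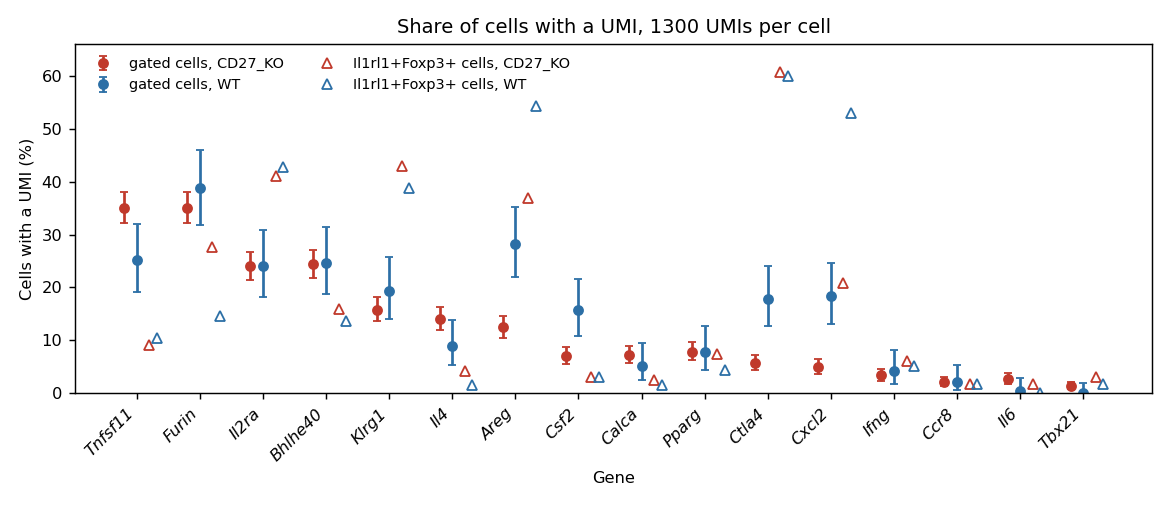
Share of cells with a UMI of each gene (y axis, %) after thinning to 1300 UMIs, in gated cells (filled, bars are exact 95% intervals of counting error) and in Il1rl1+Foxp3+ cells (open triangles) of CD27_KO (red) and WT (blue). Areg, Ctla4, Csf2 and Cxcl2 have the lower share in gated CD27_KO cells, Pparg and Il2ra lie together, and Ctla4 is seen in 60.7% and 59.9% of Foxp3+ cells.

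Of 9 costimulatory and inhibitory genes measured, 4 were lower (Ctla4, Pdcd1, Tox and Cd200) and none higher, with a median of −0.11, where 6.98% of all genes with 20 UMIs were lower. Tox, a transcription factor of persistently stimulated T cells, had 115 UMIs in CD27_KO and 53 in WT, a log2 ratio of −1.62 (−2.11 to −1.13), against −1.45 in the other kept cells. Pdcd1 (PD-1) had 35 UMIs and 14 UMIs. S100 proteins, annexins and galectins were at or below the level in WT, with a median of −0.28 over 14 genes. S100a6 (−0.64), Lgals1 (−0.62) and Anxa1 were past 1.5-fold, Anxa1 with 80.9 CPM in CD27_KO and 204 CPM in WT, a log2 ratio of −1.33 (−1.64 to −1.02). None of these 14 genes was higher. Of 14 cell cycle genes measured, 8 were higher, with a median of 0.77, against 0.94 in the other kept cells and 18.3% of all genes with 20 UMIs that were higher. Of these 8, Top2a and Mcm3 had 12 and 10 WT UMIs and the other 6 had 1 to 3. Mcm3 had −0.18 without strict-marker cells, and Pclaf had 0.46 with 2 UMIs of each gate gene required.

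The lists of T cell state were mostly near level. Each count stands beside 18.3% higher and 6.98% lower over all genes with 20 UMIs. Of 11 Th1 genes measured, Il12rb2 was higher and Ly6c2 and Nkg7 lower, Nkg7, a granule protein of cytotoxic cells, with 133 CPM in CD27_KO and 239 CPM in WT. Of 2 Th17 genes measured, Tmem176a was lower. Of 7 genes of naive and recirculating cells, Satb1 was higher, while Klf2, the factor that maintains recirculation, was lower with 189.5 CPM in CD27_KO and 287 CPM in WT, and so was Igfbp4, with 17 UMIs and 8 UMIs. Of 6 follicular helper and memory genes, Bcl6 was higher (from 2 WT UMIs) and Cd200, Pdcd1 and Tox lower. Of 11 tissue residency genes, Ahr was higher and none lower, and Cxcr6 and Cd69, markers of resident cells, were 0.13 and 0.10. None of 13 genes of the T cell receptor complex and none of 14 immediate early genes was past 1.5-fold, while Nr4a2 and Irf4 were lower among 9 genes induced by the receptor. Of 5 innate type 2 cell markers measured none was past 1.5-fold.

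The lists of signalling, metabolism and migration follow, each beside 18.3% higher and 6.98% lower over all genes with 20 UMIs. Of 15 TNF receptor family genes and ligands, Fas was higher and Tnfrsf4, Tnf, Lta and Cd27 lower, Tnf with 41.2 CPM in CD27_KO and 63.5 CPM in WT. Of 14 glycolysis genes, Slc2a1, Pfkl, Pfkp and Pgam1 were higher and the glucose transporter gene Slc2a3 lower, where 18.3% of all genes with 20 UMIs were higher and 6.98% lower. Pgam1, a glycolytic mutase, had 1.07 (0.23 to 2.05), against −0.04 in the other kept cells. Among the chemokine receptors Ccr9, a gut homing receptor, was lower, with 22 UMIs in CD27_KO and 8 in WT. Of 12 integrin and migration genes, Itgav, the integrin alpha V chain, was lower with −0.81 (−1.19 to −0.40). Of 5 Id and E protein genes Tcf3 was higher, of 5 purinergic genes P2rx7, the receptor for extracellular ATP, was higher with 0.74 (0.15 to 1.40), and of 10 interferon response genes Usp18 was higher and Ifit1 lower.

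Many of these list calls ended under a change of the cells given here, but many of those held under the other change. Without the cells holding a strict Treg marker, the log2 ratios short of 1.5-fold were 0.52 for Satb1, −0.36 for Klf2, −0.57 for Nkg7, 0.03 for Ly6c2, −0.52 for Nr4a2, −0.11 for Cd200, −0.34 for Lta, −0.24 for Pmaip1 and −0.03 for Slc2a3. They were also 0.34 for P2rx7, 0.41 for Pfkl, 0.43 for Pfkp, 0.38 for Birc3, 0.51 for Map3k7 and 0.52 for Epas1. With the gate applied at 1300 UMIs they were −0.02 for Tnf, 0.37 for Ahr, 0.37 for Fas, −0.37 for Bak1, −0.48 for Acadvl and −0.21 for Tmem176a, while Il12rb2 (−0.95), Pfkl (−0.47) and Tcf3 (−0.43) had the other sign. At 1300 UMIs, Satb1 (1.53), Pfkp (1.46), Epas1 (0.86), Nkg7 (−1.80), Ly6c2 (−1.63), Nr4a2 (−1.11), Cd200 (−2.63) and Lta (−2.27) stayed past 1.5-fold. So did Pmaip1 (−0.89), Klf2 (−0.63) and Slc2a3 (−0.63), while P2rx7 (0.46), Birc3 (0.48) and Map3k7 (0.43) did not. Without strict-marker cells, Tnf (−0.67), Ahr (1.04), Fas (1.60), Bak1 (−0.82), Acadvl (−0.72), Tmem176a (−0.59), Il12rb2 (1.12) and Tcf3 (0.98) stayed past it. Several of these rest on few WT UMIs.

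Among the genes whose mean level would give 20 WT UMIs, Samd11 was furthest higher, with 409 UMIs in CD27_KO and 6 in WT and a log2 ratio of 3.35 (2.21 to 4.80). The other kept cells had 3.96, so this is a difference between the libraries at large. Among the genes lower, Fam177a had −2.53 in gated cells and −1.73 in the others. Next in order among those higher were Hist1h2ap, Flt3l, Srpk2, Ddx18 and Trat1. Hist1h2ap, a histone gene with near-identical copies, had 1.88, but −1.06 without the Gata3 requirement and 0.14 with the gate applied at 1300 UMIs. Among cells gated at full depth and then thinned, it was seen in 1.98% in CD27_KO and 3.14% in WT. Flt3l, the dendritic cell growth factor, had 328 UMIs in CD27_KO and 17 in WT, a log2 ratio of 1.53 (0.83 to 2.33), against 0.44 in the other kept cells, and overlaps an unnamed gene on its strand. Ddx18, a helicase of ribosome assembly, had 371 UMIs and 20 UMIs, 1.47 (0.82 to 2.20), against 0.21 in the others. Satb1, a chromatin organiser of T cells, had 587 UMIs and 45 UMIs, 0.96 (0.52 to 1.43), against −0.14 in the others.

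Single gated cells showed which genes came together, as far as their depth allows. At 1300 UMIs, Tnfsf11 was seen in 45.9% of gated CD27_KO cells with Il4 (37.7 to 54.3) and in 33.3% of those without (30.2 to 36.4). In WT the shares were 41.2% of 17 cells and 23.6% of 174 cells, with wide intervals. Ctla4 was seen in 2.03% of the gated CD27_KO cells with Il4 and in 6.26% of those without. In WT, Ctla4 was seen in 31.5% of gated cells with Areg (19.5 to 45.6) and in 12.4% of those without (7.40 to 19.1). In CD27_KO the shares were 5.30% with Areg and 5.72% without. The share of cells with Ctla4 was thus higher beside Areg in WT and nearly level in CD27_KO, and the difference between the libraries was not tested.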

How the data were processed

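Cell Ranger 6.1.1 with mm10 made the matrices, per the file headers and the submitters' processing notes. The deposited counts are UMI counts per gene and barcode, for 32285 genes and 1 antibody feature with 0 UMIs. The kit is v3.1 in one label and v2 in another. The sources used here give no aligner settings. The barcodes numbered 6893 in CD27_KO and 6398 in WT. Barcodes below 500 genes, or above 10% mitochondrial UMIs, were dropped. No doublet caller was run here, and cells in the top 5% of UMIs were left out as an alternative. UMIs were summed over cells and scaled to CPM, and log2 ratios carry exact conditional binomial intervals. Shares carry Clopper-Pearson intervals. Genes with 0 UMIs on one side were set against 3 counts. Genes past 1.5-fold were called where both sides together held 50 UMIs, or 20 UMIs in lists. For shares of cells with a gene, cells gated at full depth were thinned to 1300 UMIs. For log2 ratios and shares of gated cells at 1300 UMIs, the gate was applied after thinning.

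Genes were named by rule: the 12 furthest each way between libraries, up to 8 and 6 each way against Foxp3+ and Il5 or Il13 cells, 12 higher and 6 lower against other cells, up to 4 of each list, and a fixed set. They needed 20 cells and no cell with over 20% of the UMIs. Some listed genes outside the rule (such as Cd40lg, Zfp36, Nfkbia, Tnfaip3, Rora, Maf, Cxcr6, Cd69 and Tnf) and the gene pairs were picked with their values in view. The gated cells and the 35 gene lists were chosen with earlier results of these data known. Some genes that the rule names are not reported here. A filter for 20 expected WT UMIs was added after seeing the data. Positions are from GENCODE vM21 (mm10). Python 3.11.15, numpy 2.4.6, scipy 1.17.1, pandas 2.3.3 and matplotlib 3.10.9 were used, and the steps were tested on simulated data.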

Additional observations from a re-analysis of the deposited data

Results flagged for a closer look

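Ccl1, a chemokine that binds CCR8, was higher in gated CD27_KO cells than in gated WT cells, with a log2 ratio of 1.35 (85 UMIs in 25 cells and 5 UMIs in 2 cells), but lower in CD27_KO among cells with Il1rl1 and Foxp3, with −2.06 (20 UMIs and 153 UMIs). Clp1, an RNA kinase of tRNA and mRNA processing, had 2.93 in gated cells, from 51 UMIs in CD27_KO and 1 in WT, and −0.999 in cells with Il1rl1 and Foxp3. Both were singled out because the 2 kinds of cells moved in opposite directions by at least 1.5-fold. With 1 library per group the difference was not tested, and in the gated cells each rests on 5 or fewer WT UMIs.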

How the results depend on the processing

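No paired analysis was possible because each group is 1 library and the labels number no replicates. The ratio of gated shares, 4.95, became 7.21 with 2 UMIs of each gene, 3.78 without the Gata3 requirement and 3.29 at 1300 UMIs. The counts of genes within gated cells, 1037 higher and 285 lower, became 357 and 138 at 1300 UMIs, 1664 and 635 with 20 UMIs, 556 and 113 with 100 UMIs, and 238 and 96 with 20 expected WT UMIs. Centring on the median gene, a shift of 0.11, gave 464 lower, with 63.03% of called genes higher, against 78.4%. Against Foxp3+ cells, CD27_KO had 326 higher and 651 lower, which became 652 and 1159 with 20 UMIs, 162 and 339 with 100 UMIs, and 550 higher by the mean of per-cell CPM. WT had 212 higher and 829 lower, which became 556 and 1580, 91 and 376, and 377 higher, and 353 higher with 2 UMIs of each gene. Of 50 named genes past 1.5-fold, 5 changed direction: Mt1 0.45 and Ier3 0.91 without strict Treg markers, Hist1h2ap −1.06 and Hist1h2ae −1.04 without the Gata3 requirement, and Lst1 0.010 with 2 UMIs and 0.049 at 1300 UMIs. Of 15 named genes short of 1.5-fold, 12 changed sign in at least 1 alternative, Klrg1, Tnfsf11, Pparg, Calca and Furin among them. The causes were not tested. The WT pool of 198 cells limits every ratio of genotypes.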
